A study of Mus musculus with 6 samples.

Results

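The genes described here encode the proteasome, the barrel-shaped protease that degrades ubiquitin-tagged proteins, together with the caps and activators that dock on it. They were chosen by symbol: every gene of the deposited count table whose symbol starts with Psma, Psmb, Psmc, Psmd or Psme followed by a digit, leaving out the immunoproteasome subunits Psmb8 and Psmb9. The rule found 42 of the 23337 genes in the table. One of them, Psmc3ip, encodes a meiotic recombination protein and no proteasome subunit, and was counted apart. The remaining 41 comprised 17 core genes (Psma and Psmb) and 24 regulatory genes (Psmc, Psmd and Psme). The pattern also takes in genes that are not part of the constitutive particle: the interferon-inducible Psmb10, the testis-restricted Psma8, the thymus-restricted Psmb11, and Psmd5, Psmd9 and Psmd10, chaperones that help to assemble the cap and leave before it is complete. Of the 41, 40 passed the filter on low counts and were tested among 14587 genes. Psmb11 was not tested, with 6 counts in AAV-GFP replicate 1 and 0 in the other 5 libraries.

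The RNA came from heart muscle cells of wild-type mice. On postnatal day 1 each animal was injected with AAV, an adeno-associated virus, and at 4 weeks of age its cardiomyocytes were isolated by Langendorff perfusion and sorted by fluorescence. The virus carried GFP (the control), XBP1S or ATF6N. These names usually stand for XBP1 made from its spliced mRNA and for the cleaved ATF6 that enters the nucleus, both transcription factors of the unfolded protein response of the endoplasmic reticulum. All 3 groups therefore carried a virus, and each had 2 libraries, called replicates 1 and 2 as in the titles. The labels do not give the strain, the sex, the promoter or dose of the virus, or the number of animals behind a library, so p-values cover the spread between libraries alone, and that spread may be technical.

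The proteasome consists of a core particle and a regulatory particle. The core is a stack of rings, outer rings of alpha subunits that form the gate and inner rings of beta subunits, of which Psmb5, Psmb6 and Psmb7 carry the proteolytic sites. The regulatory particle has a base with a ring of ATPases (Psmc1 to Psmc6) that unfold substrates and a lid that holds the deubiquitinase Psmd14, while the Psme genes encode activators that open the gate in place of that particle. In most cells the subunit genes are transcribed together, with Nfe2l1 as the factor known to raise them when the proteasome is inhibited. In the heart the proteasome clears damaged and surplus proteins and, after retrotranslocation from the endoplasmic reticulum, the substrates of ER-associated degradation.

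Total counts ran from 67702482 to 112049342 per library. Cardiomyocyte markers such as Myh6 and Tnnt2 summed to between 81062 and 115678 CPM in every library, the CPM being the count relative to the TMM-adjusted library size. Single markers moved in opposite directions within that sum. In AAV-ATF6N against AAV-GFP 3 of the 8 had a log2 fold change above 0 and 5 below, with 0 called. Myh6 was at 1.04 and Tnnt2 at -0.63, and at 0.68 and -0.22 without AAV-GFP replicate 1. Markers of other cell types were present at low levels and moved with the groups. The 5 endothelial markers summed to 352 and 619 CPM with AAV-GFP, to 645 and 984 with AAV-XBP1S and to 434 and 391 with AAV-ATF6N. Within that sum Cdh5, Tie1 and Emcn lay below both controls in AAV-ATF6N, while Kdr and Pecam1 lay between the controls. Emcn stood at 39.3 and 36.97 CPM with AAV-GFP and at 18.7 and 18.2 with AAV-ATF6N. The 5 smooth muscle and pericyte markers summed to 180 and 235, 272 and 323, and 165 and 138 CPM in the same group order. The 5 Schwann and epicardial markers summed to between 7.34 and 12.8 CPM and the 6 macrophage and leukocyte markers to between 20.6 and 36.4 CPM. Among the erythroid markers Hba-a1 was at 0 counts throughout, the beta-globin gene listed as Beta-s stood at 265 and 118 CPM with AAV-GFP, at 99.9 and 62.9 with AAV-XBP1S and at 37.6 and 37.5 with AAV-ATF6N, highest in AAV-GFP replicate 1, and Alas2 was called lower in AAV-ATF6N (0.0470 as adjusted p). Of the fibroblast markers, 6 in number, the sums were 399 and 514, 706 and 828, and 709 and 676 CPM in the same order, with 0 called. The part of these cells in the members' values was not tested. Xist stood at 24.6 and 7.88 CPM with AAV-GFP, at 43.1 and 20.2 with AAV-XBP1S and at 0.197 and 0.0919 with AAV-ATF6N. The Y-linked Eif2s3y stood at 16.6 and 13.7 CPM with AAV-GFP, at 0 and 0 with AAV-XBP1S and at 44.3 and 43.2 with AAV-ATF6N, where a count of 0 allows up to 3 counts, and Ddx3y and Kdm5d followed the same order. The sex of the animals and the virus therefore cannot be told apart. One control differed from all other libraries: AAV-GFP replicate 1 had a score of -99.6 on principal component 1, against -14.2 to 46.0 for the others, and held the most ribosomal precursor RNA (Rn45s, 0.337% of counts against 0.0319% to 0.130%). The delivered genes were checked through the mouse symbols: Xbp1 stood at 98.0 and 115 CPM with AAV-GFP against 160.4 and 166 with AAV-XBP1S, and Atf6 at 44.9 and 70.6 with AAV-GFP against 162 and 158 with AAV-ATF6N, without overlap and with adjusted p of 0.307 and 0.126 in edgeR. Because AAV-GFP replicate 1 is one of only 2 controls, the comparisons of the members with AAV-GFP are given with and without it.

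The promoters are shown because the delivered factors are known to act through defined response elements. Windows of 250 bases before the transcription start were taken from RefSeq (GRCm38.p6) and matched 35 of the 42 genes, with 38 windows. Psma8, Psmb1, Psmb2, Psmb7, Psmc3, Psmd3 and Psmd7 had no entry. Both strands were searched for the ER stress response element that ATF6 is known to bind (CCAAT and CCACG with 9 bases between them), its second form (ATTGG and CCACG with 1 base between them), the unfolded protein response element associated with XBP1 (TGACGTGG), the last 6 letters of that element (ACGTGG), an antioxidant-type element of the kind read by Nfe2l1 (TGACNNNGC) and the CCAAT box. The motifs overlap, since the ER stress response element begins with CCAAT and TGACGTGG ends in ACGTGG. The 2 forms of the ER stress response element and TGACGTGG were in 0 of the 38 windows, beside 0.113%, 0.03% and 0.563% of 32851 windows of all genes. ACGTGG was in 4 windows (10.5%, against 6.91% of all), those of Psma1, Psma4, Psmb10 and Psmd9. The antioxidant-type element was in 5 (13.2%, against 10.2%), those of Psmb5, Psmb6, Psmc6, Psmd9 and Psmd12, and CCAAT in 14 (36.8%, against 33.9%). These are matches of letters within the windows, not binding sites.

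Printed here are the windows of 2 catalytic subunits with the antioxidant-type element, of Psma4 with ACGTGG, and of Psma7, the member with the lowest log2 fold change in AAV-ATF6N against AAV-GFP, with a CCAAT box. They are 5′ to 3′ on the strand of the gene with the match in capitals. They lie at chr14:54617996-54618245, minus strand (Psmb5), chr11:70525107-70525356, plus strand (Psmb6), chr9:54950609-54950858, plus strand (Psma4) and chr2:180042465-180042714, minus strand (Psma7). In Psma4 the capitals cover a match on each strand.
Psmb5: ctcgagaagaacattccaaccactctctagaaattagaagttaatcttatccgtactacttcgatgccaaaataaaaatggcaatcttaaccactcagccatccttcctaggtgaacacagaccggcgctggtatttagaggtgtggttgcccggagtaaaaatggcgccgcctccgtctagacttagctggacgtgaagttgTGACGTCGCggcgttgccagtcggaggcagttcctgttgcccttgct
Psmb6: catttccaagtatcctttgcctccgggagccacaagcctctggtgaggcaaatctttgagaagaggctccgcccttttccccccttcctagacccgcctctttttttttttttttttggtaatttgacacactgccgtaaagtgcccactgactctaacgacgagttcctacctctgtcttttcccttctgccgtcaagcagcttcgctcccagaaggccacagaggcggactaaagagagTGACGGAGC
Psma4: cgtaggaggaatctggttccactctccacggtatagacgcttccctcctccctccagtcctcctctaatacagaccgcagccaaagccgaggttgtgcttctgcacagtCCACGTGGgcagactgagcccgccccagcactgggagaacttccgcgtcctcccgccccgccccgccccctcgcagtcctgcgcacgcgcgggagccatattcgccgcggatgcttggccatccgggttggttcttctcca
Psma7: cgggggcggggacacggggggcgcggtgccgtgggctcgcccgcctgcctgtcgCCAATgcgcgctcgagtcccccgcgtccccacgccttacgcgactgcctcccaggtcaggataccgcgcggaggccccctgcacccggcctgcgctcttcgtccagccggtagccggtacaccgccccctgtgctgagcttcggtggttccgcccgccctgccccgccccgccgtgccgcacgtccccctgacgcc

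Levels per length differed far more between subunits than between groups. The RPKM, which is the TMM-scaled CPM per kilobase of exon length in the deposited table, allows genes to be set side by side, and each alpha or beta subunit occurs once in its ring. The highest core subunit was Psmb6, which carries the caspase-like site, at 432 ± 162, 337 ± 98.8 and 287 ± 15.1 RPKM in AAV-GFP, AAV-XBP1S and AAV-ATF6N (mean ± SD, n = 2 each). Psma7, Psmb2 and Psmb3 had means over the 6 libraries of 317, 289 and 246 RPKM. Psma7 and Psmb2 had no fixed order, since Psmb2 was the higher in AAV-XBP1S replicate 2 (251 against 236 RPKM) and in both AAV-ATF6N libraries. The lowest of the 14 standard core subunits was Psma3, with 23.4 ± 6.84, 22.8 ± 3.20 and 20.3 ± 1.59 RPKM in the same order, below Psma5 with an overall mean of 42.2. Within a library the highest standard core subunit exceeded the lowest 12.9-fold to 19.4-fold. The neighbours Psmb7, Psma1, Psma6 and Psmb1, with overall means of 177, 179, 178 and 174 RPKM, did not differ beyond their spread over libraries.

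Among the members of the cap, the ATPases and the lid subunits named Psmd were each more even than the standard core subunits. Psmc3, an ATPase of the base, was the highest Psmc or Psmd member. It had 282 ± 65.4, 206 ± 34.0 and 208 ± 3.39 RPKM in AAV-GFP, AAV-XBP1S and AAV-ATF6N. Psmc6 was the lowest ATPase with an overall mean of 58.4. The 6 ATPases spanned 3.25-fold to 4.86-fold within a library and the 8 lid subunits named Psmd 2.21-fold to 3.15-fold. The symbol rule misses the lid subunit Sem1 (listed as Shfm1, 491 bases of exon), which is left out of this ranking and span. Its means were 224 ± 118, 156 ± 53.4 and 125 ± 5.27 CPM in the same group order. In the lid, Psmd8 had an overall mean of 126 RPKM and the deubiquitinase Psmd14 one of 50.9. The assembly chaperones were well below the subunits they help to place, with overall means of 21.3 for Psmd5, 13.9 for Psmd10 and 12.5 for Psmd9. Among the activators, Psme1 (alpha subunit of the 11S cap) had an overall mean of 206 RPKM and its ring partner Psme2 one of 31.2. Psme3, the nuclear 11S activator, and Psme4, the large PA200 activator, lay at 36.3 and 30.9, and the spread of both over libraries overlaps that of Psme2. The testis-restricted Psma8 was the lowest tested member, with an overall mean of 0.278 RPKM and 18 to 50 counts per library, and stood at 0.447 and 0.617 CPM with AAV-GFP, at 0.322 and 0.550 with AAV-XBP1S and at 0.616 and 0.276 with AAV-ATF6N. Psmc3ip stood at 3.25 and 3.33 CPM with AAV-GFP, at 4.40 and 2.60 with AAV-XBP1S and at 3.31 and 2.95 with AAV-ATF6N.

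**Figure D1:**
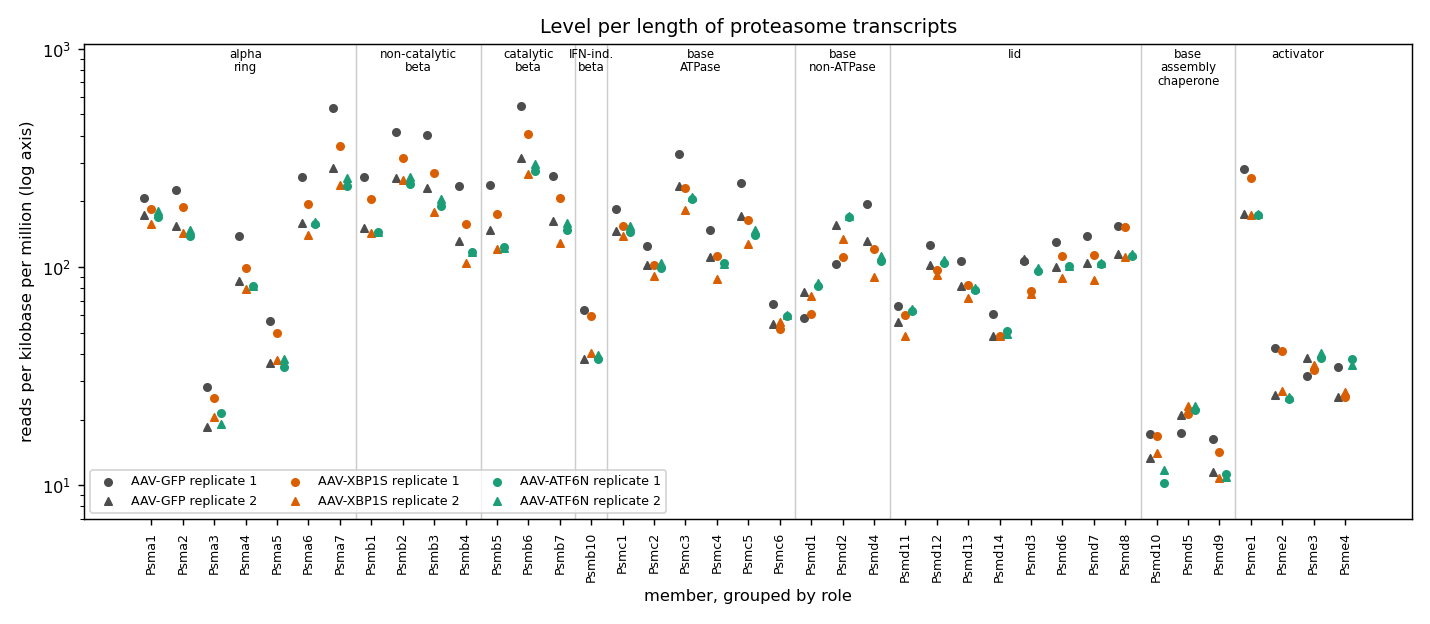
Level per length of the tested subunits other than Psma8 in each of the 6 libraries, in RPKM on a log axis, grouped by role. Colours mark the virus and shapes the replicate; Psmb6 is the highest core gene, with Psma7 and Psmb2 next in changing order, Psmc3 leads the ATPases and the assembly chaperones Psmd5, Psmd9 and Psmd10 are the lowest group.

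Both catalytic and structural core subunits were highest in AAV-GFP replicate 1. Psmb5 (chr14:54614120-54617995, minus strand, 871 bases of exon), which carries the chymotrypsin-like site, stood at 207 and 128 CPM with AAV-GFP, at 152 and 105 with AAV-XBP1S and at 107 and 107 with AAV-ATF6N (replicates 1 and 2, here and below). Psmb6 (chr11:70525357-70527858, plus strand, 1036 bases of exon) stood at 566 and 328 CPM with AAV-GFP, at 421 and 276 with AAV-XBP1S and at 286 and 308 with AAV-ATF6N. Psmb7 (chr2:38588046-38643906, minus strand, 969 bases of exon), with the trypsin-like site, stood at 253 and 158 CPM with AAV-GFP, at 199 and 125 with AAV-XBP1S and at 143 and 154 with AAV-ATF6N. In all 3 catalytic genes AAV-GFP replicate 1 was the highest library, AAV-XBP1S replicate 1 came second, and the other 4 lay close together. The AAV-XBP1S libraries overlapped those of AAV-GFP, while both AAV-ATF6N libraries lay below both controls. Exons of Psmb5 overlap the microRNA gene Mir686 on the same strand, and pseudogene copies of several core genes exist, so part of these counts may be shared with them.

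The remaining core genes repeated that order of libraries with few exceptions. Psma7 (chr2:180036376-180042402, minus strand, 881 bases of exon), an alpha-ring subunit, stood at 469 and 249 CPM with AAV-GFP, at 316 and 208 with AAV-XBP1S and at 207 and 225 with AAV-ATF6N. Psmb3 (chr11:97703434-97713500, plus strand, 731 bases of exon), the shortest tested member, stood at 295 and 168 CPM with AAV-GFP, at 198 and 130.1 with AAV-XBP1S and at 139 and 150.2 with AAV-ATF6N. AAV-GFP replicate 1 was again far above the other libraries in both, and the lowest values were shared between AAV-XBP1S replicate 2 and the AAV-ATF6N pair. Psma1 (chr7:114264550-114276116, minus strand) was flatter, at 259 and 217 CPM with AAV-GFP, at 231 and 197 with AAV-XBP1S and at 214 and 226 with AAV-ATF6N. Psma3 (chr12:70974623-70994923, plus strand) stood at 40.0 and 26.3 CPM with AAV-GFP, at 35.5 and 29.1 with AAV-XBP1S and at 30.4 and 27.3 with AAV-ATF6N, where the control libraries enclosed all the others. Psma4, whose window is printed with ACGTGG, had 151 CPM in AAV-GFP replicate 1 and 87.3 to 108 CPM in the other 5 libraries. Its exons overlap those of AY074887 on the other strand, and the exons of the activator Psme1 overlap those of Fam158a, whose reads these unstranded libraries cannot tell apart.

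Base and lid subunits of the cap showed both orders. Psmc5 (chr11:106256185-106263112, plus strand, 1277 bases of exon), an ATPase, stood at 310.1 and 219 CPM with AAV-GFP, at 209 and 162 with AAV-XBP1S and at 178 and 188 with AAV-ATF6N. Psmd4 (chr3:95032705-95042545, minus strand, 1252 bases of exon), a ubiquitin receptor of the base, stood at 244 and 164 CPM with AAV-GFP, at 151 and 113 with AAV-XBP1S and at 133 and 141 with AAV-ATF6N. In both genes all 4 libraries of the delivered factors lay below both controls. Psmd3 (chr11:98682554-98695978, plus strand, 2147 bases of exon), a lid subunit, stood at 229 and 234 CPM with AAV-GFP, at 166 and 162 with AAV-XBP1S and at 206 and 213 with AAV-ATF6N. Its replicates were close in every group, with AAV-XBP1S lowest, AAV-ATF6N in the middle and AAV-GFP highest, and no group overlapped another. Psmd2 (chr16:20651652-20663414, plus strand, 3053 bases of exon), the large scaffold of the base that receives ubiquitin-like domains, stood at 314 and 477 CPM with AAV-GFP, at 338 and 412 with AAV-XBP1S and at 517 and 521 with AAV-ATF6N. Here AAV-GFP replicate 1 was the lowest of the 6 libraries and the AAV-ATF6N pair the highest. Its partner Psmd1 (chr1:86064619-86139295, plus strand) had the same order, at 191 and 251 CPM with AAV-GFP, at 199 and 239 with AAV-XBP1S and at 265 and 275 with AAV-ATF6N. Among the other ATPases, Psmc3 (chr2:91054016-91059438, plus strand) stood at 537 and 386 CPM with AAV-GFP, at 376 and 297 with AAV-XBP1S and at 336 and 344 with AAV-ATF6N, below both controls in the 4 other libraries. Psmc1 stood at 275 and 218 CPM with AAV-GFP, at 229.9 and 208 with AAV-XBP1S and at 216 and 229.8 with AAV-ATF6N. Psmc6 stood at 106 and 85.3 CPM with AAV-GFP, at 81.6 and 87.6 with AAV-XBP1S and at 93.3 and 94.7 with AAV-ATF6N, and in both genes the groups overlapped apart from Psmc6 between AAV-XBP1S and AAV-ATF6N.

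The activators showed both orders as well. Psme1 (chr14:55578494-55581527, plus strand, 977 bases of exon) stood at 274 and 170.3 CPM with AAV-GFP, at 251 and 169.8 with AAV-XBP1S and at 169.7 and 171 with AAV-ATF6N. Psme2 (chr14:55587440-55591101, minus strand, 977 bases of exon) stood at 41.8 and 25.2 CPM with AAV-GFP, at 40.3 and 26.4 with AAV-XBP1S and at 24.3 and 24.9 with AAV-ATF6N. Both were high in replicate 1 of AAV-GFP and of AAV-XBP1S and level in the other 4 libraries. So was the interferon-inducible beta subunit Psmb10 (chr8:105935728-105938392, minus strand, 1270 bases of exon), at 80.8 and 48.3 CPM with AAV-GFP, at 75.6 and 51.5 with AAV-XBP1S and at 48.3 and 50.4 with AAV-ATF6N. Psme3 (chr11:101316251-101323530, plus strand, 2619 bases of exon) stood at 82.7 and 101 CPM with AAV-GFP, at 88.5 and 93.2 with AAV-XBP1S and at 99.8 and 106 with AAV-ATF6N, lowest in those same libraries. Psme4 (chr11:30771775-30880361, plus strand, 6442 bases of exon), the longest member, stood at 224 and 163 CPM with AAV-GFP, at 163 and 172 with AAV-XBP1S and at 243 and 229 with AAV-ATF6N, with the AAV-ATF6N pair above every other library. The chaperone Psmd5 (chr2:34852089-34870962, minus strand, 2042 bases of exon) was at 35.5 and 43.0 CPM with AAV-GFP, at 43.4 and 47.1 with AAV-XBP1S and at 45.0 and 47.2 with AAV-ATF6N, lowest in AAV-GFP replicate 1. Psmd9 (chr5:123228190-123250125, plus strand), the Psmd gene with the lowest RPKM averaged over the 6 libraries, stood at 42.5 and 29.7 CPM with AAV-GFP, at 36.7 and 27.9 with AAV-XBP1S and at 29.2 and 28.3 with AAV-ATF6N. Psmd10 (chrX:140948425-140956711, minus strand) stood at 25.1 and 19.4 CPM with AAV-GFP, at 24.5 and 20.5 with AAV-XBP1S and at 14.9 and 17.1 with AAV-ATF6N, lowest in the AAV-ATF6N pair.

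**Figure D2:**
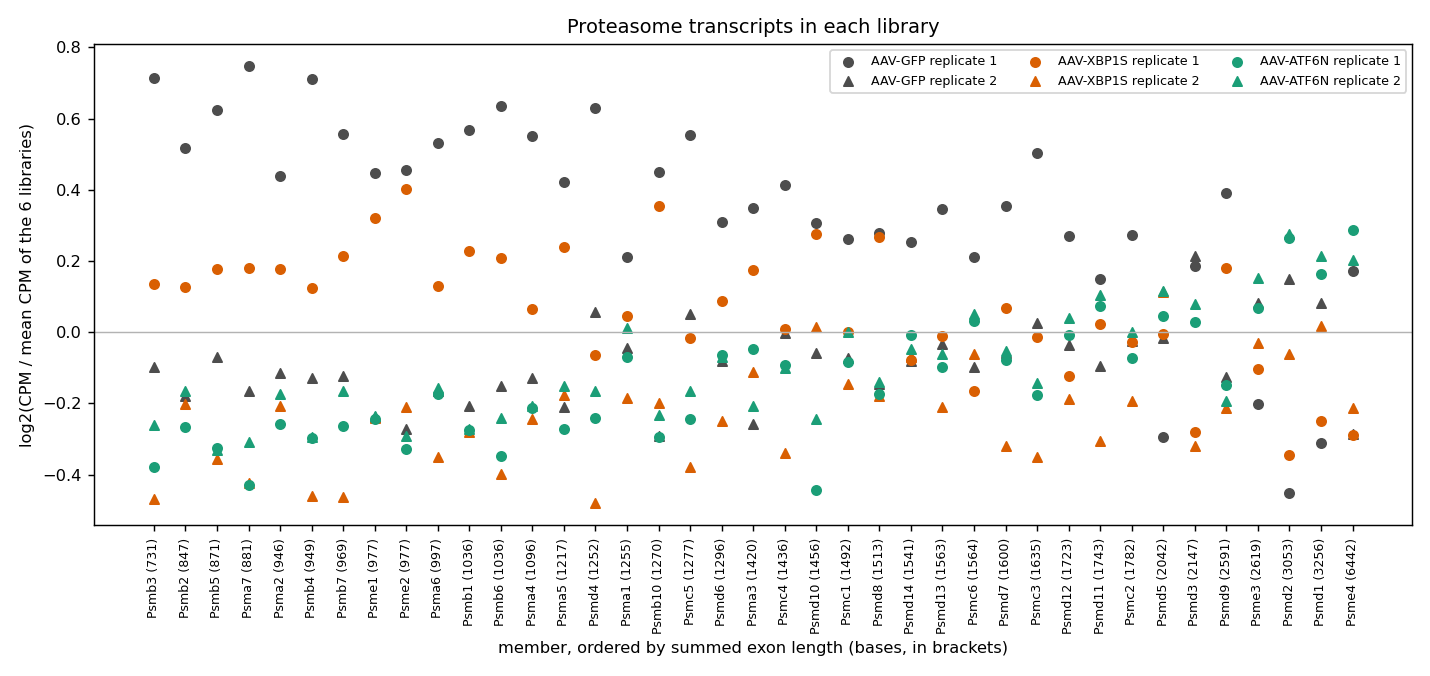
Each tested member other than Psma8 in the 6 libraries, as the log2 of its CPM over its mean CPM of the 6, with members in order of exon length (bases in brackets). AAV-GFP replicate 1 is the highest library for most members on the left and the lowest for Psmd5, Psme3, Psmd2 and Psmd1 on the right.

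Summed over its members, the core took 3703 and 2264 CPM with AAV-GFP, 2798 and 1992 with AAV-XBP1S and 2060.4 and 2162 with AAV-ATF6N. The group means were 2983 ± 1018, 2395 ± 569.6 and 2111 ± 71.8 CPM (SD, n = 2 each), and the AAV-ATF6N libraries lay below both controls while the AAV-XBP1S libraries did not. The regulatory genes summed to 4584 and 3871, 3772 and 3379, and 3850.2 and 3932 CPM in the same order, with means of 4228 ± 505, 3575 ± 278 and 3891 ± 58.0. Regulatory over core CPM was 1.24 and 1.71, 1.35 and 1.70, and 1.87 and 1.82, so the replicates of AAV-GFP differed from each other by more than the group means of AAV-GFP (1.47 ± 0.334) and AAV-ATF6N (1.84 ± 0.0352) did. With 2 libraries a group no exact permutation p can fall under 33.3%, and none is given for these sums.

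**Figure D3:**
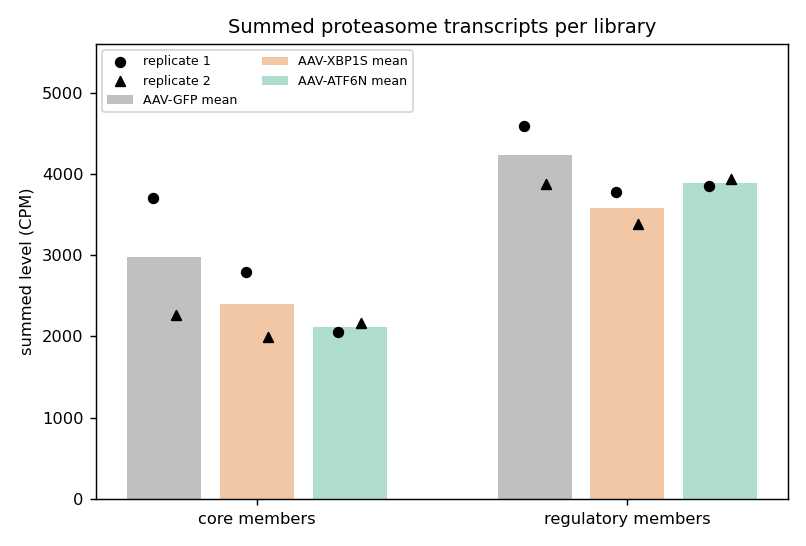
Summed CPM of the core and of the regulatory members per library, with bars for group means and a marker for each replicate. AAV-GFP replicate 1 lies above all other libraries in both sums, 3703 CPM for the core and 4584 CPM for the regulatory genes.

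In AAV-XBP1S against AAV-GFP no proteasome gene passed the test. Of 40 members, 38 had a log2 fold change below 0, all 16 core genes and 22 of 24 regulatory genes, with medians of -0.30 for the core and -0.17 for the regulatory genes beside -0.014 over all genes tested. The lowest was Psmd4, at -0.63 (SE 0.26, adjusted p = 0.429), and the highest the chaperone Psmd5, at 0.20 (SE 0.20, adjusted p = 0.716). In such bulk libraries fewer cells of a type and less RNA per cell cannot be told apart. By role, medians were -0.19 in the alpha ring, -0.36 in both the non-catalytic and the catalytic beta subunits, -0.31 in the ATPases, -0.076 in the other base subunits, -0.24 in the lid, 0.016 in the assembly chaperones and -0.046 in the activators.

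At an adjusted p of 0.05 (quasi-likelihood test in edgeR, Benjamini-Hochberg adjustment over all genes) 0 of 40 members were called, where 0.315% of all genes were called. DESeq2 also called 0, and 2 members had an unadjusted edgeR p below 0.05, Psmd3 and Psmd4. The smallest adjusted p belonged to Psmd3, at -0.50 (SE 0.18, adjusted p = 0.368). The authors' deposited table for this comparison held 0 of 40 members under 0.05 (1.31% of its genes), and the smallest adjusted p was 0.864, for Psmd4. Both AAV-XBP1S libraries lay below both controls in 6 members (15%, against 16.8% of all genes): Psmc2, Psmc3, Psmc5, Psmd3, Psmd4 and Psmd12. Only Psmd5 lay above both (2.5%, against 19.1%).

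Without AAV-GFP replicate 1 the direction did not hold for the core. Its median became 0.073 and that of the regulatory genes -0.049, beside 0.038 over all genes, and 20 of the 40 members changed the sign of their log2 fold change. Psma7 went from -0.45 to 0.073, Psmb5 from -0.38 to 0.0039 and Psmb3 from -0.50 to -0.039. Psmd3 stayed at -0.52 (adjusted p = 0.248) and had -0.46 (adjusted p = 0.0856) when each library's trend of level on gene length was taken out as an offset in the same edgeR test. Psmd4 went to -0.32 without that library and to -0.46 with the offset (adjusted p = 0.0855), and Psmc5 to -0.24 and -0.35. These 3 genes kept their direction in both, as did other members, among them Psmc3 (-0.20 and -0.35) and Psmc4 (-0.16 and -0.25). With the offset none passed.

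AAV-ATF6N was compared with the same 2 controls. Its core genes had lower means than the controls, and again none was called. All 16 core genes had a log2 fold change below 0, with a median of -0.44, and 18 of 24 regulatory genes, with a median of -0.18, beside -0.021 over all genes. The lowest was Psma7, at -0.73 (SE 0.35, adjusted p = 0.384), followed by Psmb3 at -0.68 (SE 0.33, adjusted p = 0.388), Psmb4 at -0.65 and Psmb5 at -0.65 (SE 0.30, adjusted p = 0.382). The 6 members above 0 included the scaffolds Psmd2, at 0.39 (SE 0.25, adjusted p = 0.449), and Psmd1, at 0.29 (SE 0.22), and the activator Psme4, at 0.29 (SE 0.22, adjusted p = 0.498). Medians by role were -0.39 in the alpha ring, -0.58 in the non-catalytic and -0.59 in the catalytic beta subunits, -0.24 in the ATPases, 0.29 in the other base subunits, -0.17 in the lid, -0.33 in the assembly chaperones and -0.11 in the activators.

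The same test called 0 of the 40 members, where it called 0.514% of all genes. DESeq2 called 0 as well, and 0 members had an unadjusted edgeR p below 0.05. The authors' deposited table held 0 of 40 under 0.05 (2.71% of its genes), with the smallest adjusted p at 0.319, for Psma7. Both AAV-ATF6N libraries lay below both controls in 18 members (45%, against 26.7% of all genes), 9 core and 9 regulatory. Of these 18, 16 were under 2000 bases long, as were 33 of all 40 members. They lay above both controls in Psmd1, Psmd2, Psmd5 and Psme4 (10%, against 27.9%), each over 2000 bases.

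The calls differed with the control used. With AAV-GFP replicate 1 as the sole control, edgeR called 10 members lower in AAV-ATF6N: Psma4, Psma7, Psmb1, Psmb2, Psmb3, Psmb4, Psmb5, Psmb6, Psmc5 and Psmd4, which is 25% of the members, against 9.86% of the 15274 genes tested in that fit. In all 3055 genes were called, 1506 lower and 1549 higher. Psma7 then stood at -1.10 (adjusted p = 0.0360). With AAV-GFP replicate 2 as the sole control it called 0, and the medians became -0.086 for the core and -0.0046 for the regulatory genes, with 8 members changing sign. Psma7 was then at -0.20, Psmb5 at -0.26 and Psmd4 at -0.26, while Psme4 moved up to 0.53 (adjusted p = 0.357). In each of these fits the lone control was assumed to vary like the other groups.

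**Figure D4:**
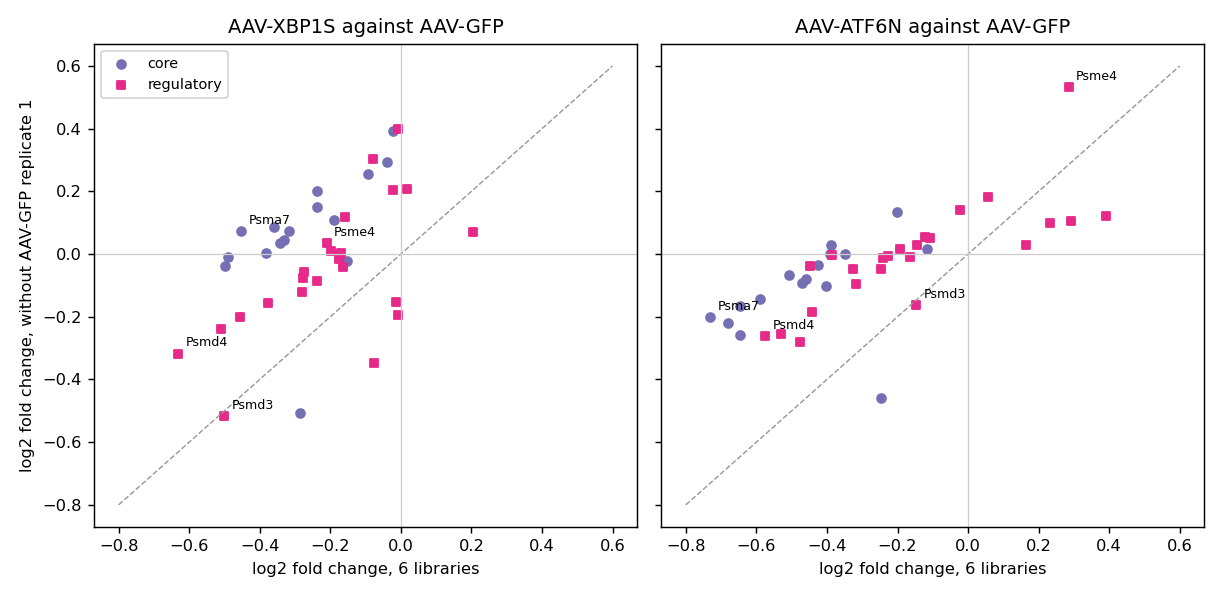
Log2 fold change of each member against AAV-GFP in the fit of all 6 libraries (horizontal axis) and without AAV-GFP replicate 1 (vertical axis), for AAV-XBP1S on the left and AAV-ATF6N on the right. The dashed line marks equal values; core genes lie above it except Psma8, and their median is 0.073 on the left and -0.086 on the right without that library.

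AAV-ATF6N and AAV-XBP1S were also compared directly, without the controls entering the contrast. In the fit of all 6 libraries the core and the cap differed in sign: 14 of 16 core genes were below 0 in AAV-ATF6N against AAV-XBP1S, with a median of -0.18, and 18 of 24 regulatory genes were above 0, with a median of 0.048, beside -0.0063 over all genes. The highest were Psme4, at 0.50 (SE 0.22, adjusted p = 0.397), Psmd2, at 0.47 (SE 0.25, adjusted p = 0.481), and Psmd3, at 0.35 (SE 0.18, adjusted p = 0.455). The lowest were Psmd10, at -0.49 (SE 0.23, adjusted p = 0.436), Psme2, at -0.44 (SE 0.32, adjusted p = 0.616), and Psmb10, at -0.37 (SE 0.31, adjusted p = 0.674). Psmd10 lies on chromosome X, and the groups differ in Xist and Eif2s3y as given above, whose part in its value was not tested.

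In the fit of all 6 libraries edgeR again called 0 of 40 members (0.226% of all genes were called). DESeq2 called 0, and 0 had an unadjusted edgeR p below 0.05 in that fit, whose estimate of spread includes the controls. Without AAV-GFP replicate 1 the core and regulatory medians were -0.18 and 0.050. The groups did not overlap in 9 members that were higher in AAV-ATF6N (22.5%, against 30.1% of all genes): Psmc6, Psmd1, Psmd2, Psmd3, Psmd11, Psmd12, Psmd14, Psme3 and Psme4. They did not overlap in 3 that were lower (7.5%, against 26.8%): Psmb10, Psmd10 and Psme2. Leaving out AAV-XBP1S replicate 1 brought the core median to -0.013 and the regulatory median to 0.12. Leaving out replicate 2 brought them to -0.43 and -0.057, the same sign, with 29 of 40 members below 0, so the difference in sign did not hold without that library. With the gene-length offset the core median turned to 0.076, the regulatory median was 0.20 and 33 of 40 members were above 0, with the smallest adjusted p at 0.0858, for Psmd3.

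In AAV-GFP and AAV-XBP1S, differences between replicates were of the size of the differences between groups, and they followed gene length. AAV-GFP replicate 1 exceeded replicate 2 in 34 of 40 members, with a median log2 difference of 0.47, from -0.60 in Psmd2 to 0.91 in Psma7. Among the 33 members under 2000 bases, 32 were higher in replicate 1 (median 0.55), and among the 7 of 2000 bases or more, 5 were lower (median -0.28). AAV-XBP1S replicate 1 exceeded replicate 2 in 32 members, with a median of 0.34. The AAV-ATF6N replicates differed by a median absolute log2 difference of 0.050. Psmd2 (3053 bases) and Psma7 (881 bases) were the extremes of the difference in AAV-GFP. Their CPM ratio, Psmd2 over Psma7, was 0.670 and 1.92 with AAV-GFP, 1.07 and 1.98 with AAV-XBP1S, and 2.49 and 2.31 with AAV-ATF6N. Psmb3 over Psme4, the shortest member over the longest, was 1.32 and 1.03, 1.21 and 0.757, and 0.570 and 0.656 in that order. Psme4 itself was higher in AAV-GFP replicate 1 (224 CPM) than in replicate 2 (163 CPM).

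The medians of all genes tested moved with length as well. In the shortest of 5 length bins (45 to 1577 bases, 2922 genes, among them 27 members), AAV-GFP replicate 1 minus replicate 2 had a median of 0.68 over all genes and 0.63 over the members. The median log2 fold change in AAV-ATF6N against AAV-GFP was -0.48 over all genes of that bin and -0.40 over its members. For AAV-XBP1S both were -0.24. In the second bin (1578 to 2395 bases, 8 members) the medians for AAV-XBP1S were -0.082 over all genes and -0.28 over the members. For AAV-ATF6N they were -0.15 and -0.16 there. In the middle bin (2396 to 3327 bases, 4 members) the medians for AAV-ATF6N were 0.043 over all genes and 0.23 over the members. For AAV-XBP1S they were 0.032 and -0.045 there. Across the 40 members Pearson's r of the log2 fold change with log2 length was 0.33 for AAV-XBP1S, 0.83 for AAV-ATF6N and 0.75 for the direct comparison. Over all 14587 genes it was 0.11, 0.23 and 0.15, far lower. Without AAV-GFP replicate 1 it was -0.37, 0.58 and 0.75 across the members, so the sign for AAV-XBP1S turned. Over all genes of that fit it was -0.055, 0.060 and 0.14. These are correlations across genes that share libraries and are not independent replicates. With the length offset the core and regulatory medians were -0.12 and -0.10 for AAV-XBP1S and 0.0039 and 0.052 for AAV-ATF6N. The share of Rn45s was highest in AAV-GFP replicate 1 (0.337%) and AAV-XBP1S replicate 1 (0.130%), the libraries in which short members were high. Its part in these values was not tested.

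**Figure D5:**
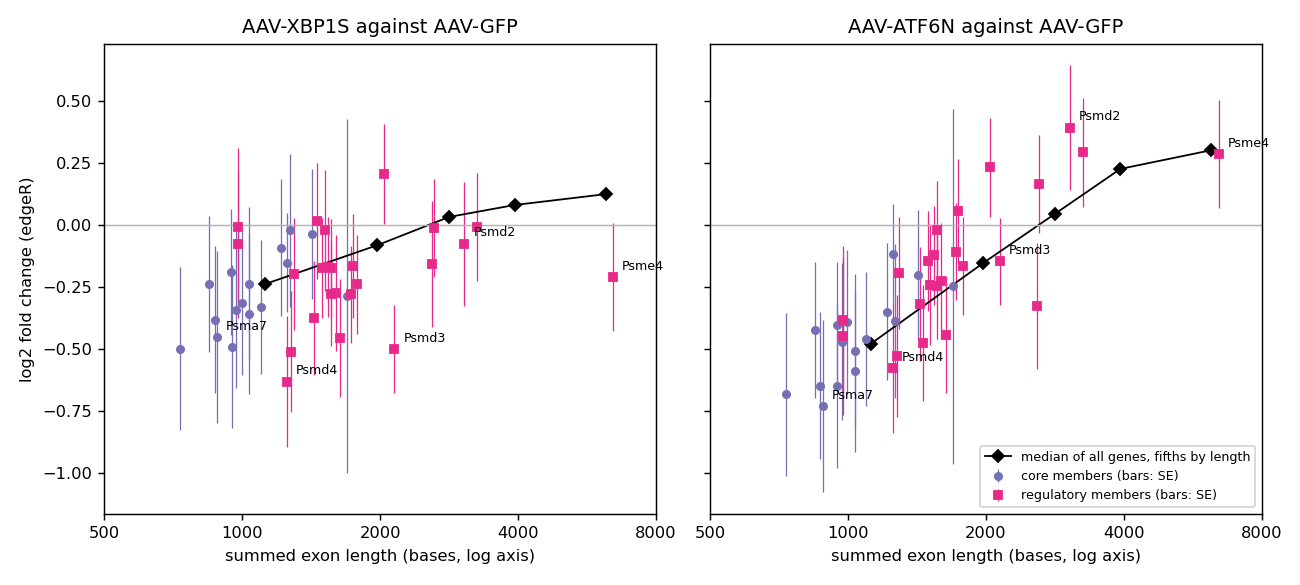
Log2 fold change of each tested member (bars, SE) on its exon length in bases (log axis), for AAV-XBP1S and AAV-ATF6N against AAV-GFP, with black diamonds for the median of all genes in 5 length bins. In the panel of AAV-ATF6N the members run from Psma7 at -0.73 to Psmd2 at 0.39.

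Genes that build or feed the proteasome were counted by list. Of 6 assembly factors 5 were matched and tested, and 0 passed in any comparison. All 5 were below 0 in both comparisons with AAV-GFP, with medians of -0.28 and -0.53, and all 5 have exons of 1059 bases or fewer. Without AAV-GFP replicate 1 the medians were 0.17 and -0.11, with 4 of the 5 above 0 in AAV-XBP1S and 1 in AAV-ATF6N. Psmg4, a chaperone of the alpha ring, stood at 27.4 and 11.5 CPM with AAV-GFP, at 16.4 and 10.5 with AAV-XBP1S and at 9.54 and 11.7 with AAV-ATF6N, with AAV-GFP replicate 1 highest, and its log2 fold change in AAV-ATF6N was -0.88 (SE 0.44, adjusted p = 0.392), against -0.12 without that library. None of 10 listed genes bound to the proteasome passed, among them deubiquitinases, receptors, inhibitors and the lid subunit Sem1. The smallest adjusted p was 0.207, for Zfand5 in the direct comparison. None of 6 ubiquitin and E1 genes and none of 11 shuttle and p97 genes passed. Vcp, the ATPase that extracts ubiquitinated proteins from the ER membrane, stood at 277 and 291 CPM with AAV-GFP, at 273 and 296 with AAV-XBP1S and at 417 and 414 with AAV-ATF6N. Its AAV-ATF6N libraries lay above the other 4, and the log2 fold change against AAV-GFP was 0.55 (SE 0.18, adjusted p = 0.306), and 0.51 without AAV-GFP replicate 1.

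Of 10 regulators of proteasome genes 0 passed in the fit of all 6 libraries. In AAV-ATF6N against AAV-XBP1S 9 of them were above 0 and 1 below. Stat3 there had a log2 fold change of 0.99 (SE 0.29, adjusted p = 0.214), and 0.99 without AAV-GFP replicate 1. Nfe2l1 stood at 346 and 558 CPM with AAV-GFP, at 283 and 384 with AAV-XBP1S and at 519 and 484 with AAV-ATF6N, with a log2 fold change of -0.44 (SE 0.28, adjusted p = 0.601) in AAV-XBP1S, where the libraries overlapped the controls, and 0.15 (SE 0.28, adjusted p = 0.786) in AAV-ATF6N. Without AAV-GFP replicate 1 these became -0.75 and -0.15, so the sign in AAV-ATF6N turned. In the list of 13 immunoproteasome and antigen-processing genes, Irf1, an interferon-induced transcription factor, was the only gene called by edgeR with all 6 libraries. It stood at 191 and 233 CPM with AAV-GFP, at 49.1 and 46.7 with AAV-XBP1S and at 26.7 and 27.7 with AAV-ATF6N and was lower in AAV-XBP1S, at -2.15 (SE 0.20, adjusted p = 0.0155), and in AAV-ATF6N, at -2.96 (SE 0.21, adjusted p = 0.00567). Without AAV-GFP replicate 1 Irf1 stayed called, at -2.29 and -3.10. Leaving out either library of AAV-XBP1S or of AAV-ATF6N ended the call in AAV-XBP1S (-2.15 to -2.11), and leaving out either AAV-ATF6N library ended that in AAV-ATF6N (-2.94 and -2.99). The excluded Psmb8 and Psmb9 had log2 fold changes of -1.75 (SE 0.32, adjusted p = 0.0833) and -1.98 (SE 0.37, adjusted p = 0.0881) in AAV-ATF6N against AAV-XBP1S and were not called by edgeR, while DESeq2 called both. In that comparison 11 of the 13 genes of the list were below 0 and 2 above. Tap1 had -1.33, Nlrc5 -1.31 and B2m -1.02, and without AAV-GFP replicate 1 they had -1.33, -1.30 and -1.02. The summed endothelial markers were lower in AAV-ATF6N (434 and 391 CPM) than in AAV-XBP1S (645 and 984 CPM) as well, and their part in these values was not tested. Psmb5 and Psmb6, the constitutive counterparts of Psmb8 and Psmb9, had -0.26 (SE 0.30) and -0.23 (SE 0.32) in that comparison. The difference between the subunit pairs was not tested.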

How the data were processed

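Polyadenylated RNA of sorted mouse cardiomyocytes was prepared with SMART-Seq v4 and Nextera XT kits, per the labels, which do not mark strand. The authors deposited whole-number read counts per gene with exon coordinates and summed exon length on mm10, and the submitters' processing notes name STAR, featureCounts, DESeq2 and DESeq (versions not given in the sources used here). Their deposited tables of each comparison with AAV-GFP give log2 fold changes with p-values and adjusted p-values, per the file headers. The SE and Wald score in the same deposited tables were not used. No column of per-sample values was left out.

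Counts were filtered with filterByExpr (count minimum 10), TMM-normalized and tested with the quasi-likelihood test of edgeR 4.0.16 (R 4.3.3), fitted to all 6 libraries with group as the only term, two-sided, with Benjamini-Hochberg adjustment over 14587 genes and a threshold of 0.05. The SE is the log2 fold change divided by the square root of F. Overlap between groups was read from CPM. Alternatives were RLE scaling, DESeq2 1.42.0, no filter, a replicate term, a length offset (loess, span 0.3), the 4 libraries compared, and each library left out in turn. The test was checked on simulated data. The members, their roles and the lists were chosen with earlier results of these data known. Values in every library are given for catalytic and interferon-inducible subunits, activators, the extremes of each family in log2 fold change and level, and the longest and shortest members. Psmb3 is the shortest and Psme4 the longest. Library values of Psma4, Psmd1, Psmd3 and Psmd10 were added after seeing the data. Counting error was not estimated apart from the spread between libraries, and it weighs most on Psma8, with 18 to 50 counts per library.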

Additional observations from a re-analysis of the deposited data

How the results depend on the processing

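By edgeR's quasi-likelihood test, 0 proteasome genes were called in every comparison under RLE scaling, no filter, the replicate block and the length offset. The same held with only the 4 libraries compared, and DESeq2 with its own test also called 0. Leaving out each library in turn gave 0 to 10 members for AAV-ATF6N against AAV-GFP and 0 in the others. The replicate numbers were not shown to pair samples (correlations of deviations 0.38, -0.04 and -0.05), and with the replicate block 165, 237 and 356 genes were called for AAV-XBP1S and AAV-ATF6N against AAV-GFP and the direct comparison, against 46, 75 and 33. In the same order, genes called numbered 477, 573 and 803 with DESeq2, 233, 348 and 458 without the filter, 289, 224 and 606 with the length offset, and 13, 8 and 663 with the 4 libraries compared. Leaving out 1 library gave 2 to 322, 6 to 3055 and 1 to 717 genes.

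With the length offset the median for AAV-ATF6N against AAV-GFP was 0.0039 in the core and 0.052 in the regulatory genes, and the regulatory median of the direct comparison was 0.20. Leaving out 1 library, core medians ran from -0.57 to 0.073 for AAV-XBP1S and from -0.73 to -0.086 for AAV-ATF6N against AAV-GFP, and regulatory medians from -0.35 to -0.049 and from -0.33 to -0.0046. For AAV-XBP1S against AAV-GFP, Psma7 ran from -0.81 to 0.073 and Psmb5 from -0.66 to 0.0039, the higher value of each being without AAV-GFP replicate 1. Psmb7 turned to 0.020 and Psme4 to -0.11 for AAV-ATF6N with the length offset, and the cause of these moves was not tested. Psmb8 and Psmb9 in the direct comparison passed 0.05 under DESeq2, no filter, the block, the offset, the 4 libraries and without either control, and Irf1 missed it in both comparisons with the 4 libraries and without either AAV-ATF6N library, and for AAV-XBP1S also without either AAV-XBP1S library.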

Other observations

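Ubiquitin ligases of striated muscle, which mark sarcomere proteins for the proteasome, were listed as well, and 0 of 8 passed the test in any comparison with all 6 libraries. Their summed level was 2272 and 2489.6 CPM with AAV-GFP, 1552 and 1524 with AAV-XBP1S and 2179.9 and 2274 with AAV-ATF6N, so the AAV-XBP1S libraries lay below the other 4. Asb2, a cullin-ring adaptor of muscle and the most abundant of the 8, stood at 1037 and 1288 CPM with AAV-GFP, at 707 and 668 with AAV-XBP1S and at 1056 and 1132 with AAV-ATF6N, with a log2 fold change of -0.76 (SE 0.19, adjusted p = 0.237) in AAV-XBP1S against AAV-GFP and -0.91 without AAV-GFP replicate 1. In AAV-ATF6N against AAV-XBP1S it had 0.67 (SE 0.19, adjusted p = 0.205), and it passed without that control (0.67, adjusted p = 0.0471). Trim55, a ligase of the sarcomere, stood at 45.5 and 49.9 CPM with AAV-GFP, at 46.4 and 55.1 with AAV-XBP1S and at 76.2 and 79.1 with AAV-ATF6N, with 0.70 (SE 0.20, adjusted p = 0.254) in AAV-ATF6N against AAV-GFP and 0.64 without AAV-GFP replicate 1.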
